A study of Mus musculus with 2 samples.

Results

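The genes of protein folding and of the unfolded protein response were compared between GFP-positive and GFP-negative CD4+ T cells sorted from DEREG mice, which carry GFP under the Foxp3 promoter, fused to the diphtheria toxin receptor. The gene set holds 40 listed symbols in 3 roles: cytosolic and mitochondrial chaperones with their cofactors (18 genes), chaperones, folding enzymes and degradation factors of the endoplasmic reticulum (14 genes), and stress sensors with their transcription factors (8 genes). All probe sets paired with exactly 1 of these symbols were taken, which gave 100 probe sets of 38 genes, out of 34945 probe sets of 18193 genes. Hsp90ab1 and Hsf1 had no probe set in the platform annotation used and were not analysed here. The rule that names them is by function and uses no signal.

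The GFP-positive cells were labelled CD4+GFP+FoxP3+ and the GFP-negative cells CD4+GFPnegFoxP3neg, with DEREG given as the strain of both. Both therefore come from animals with the transgene, and the sort rests on the reporter and not on Foxp3 protein. Each population was hybridised to 1 Affymetrix Mouse Genome 430 array, so every value below is a difference between 2 arrays without replicates, and no test was possible. The sources used here do not give the organ or the age and number of the mice.

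Newly made proteins are folded by ATP-driven chaperones: HSP70 proteins, guided by J domain cofactors, HSP90, and closed chambers such as TRiC in the cytosol and HSP60 with HSP10 in mitochondria. Heat shock factors raise many of these genes when unfolded protein builds up in the cytosol. In the endoplasmic reticulum, unfolded protein is sensed by IRE1, PERK and ATF6, which act through the transcription factors XBP1, ATF4 and cleaved ATF6, and prolonged stress induces CHOP. Activated lymphocytes use these systems for growth and secretion.

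The values are MAS5 signals, a summary brightness per probe set on a linear scale, and a gene was described by its brightest probe set. A floor of 51.0 was set from genes restricted to other tissues, signals under it were raised to it, and each log2 difference is the GFP-positive value minus the GFP-negative value. Of the 38 genes, 36 had at least 1 signal above the floor and 33 had both. Where only 1 array was above the floor, the fold is a minimum for that floor only ("at least"). It shrinks with a higher floor: with the floor doubled, Hspb1 went from 1.08 to 0.08 log2 and Sdf2l1 from 1.12 to 0.12 log2. As a measure of disagreement between probe sets, those that share a gene differed from its mean difference with a standard deviation of 0.42 log2 (9138 probe sets of 3551 genes). It was 0.41 for the folding genes (57 probe sets of 21 genes). This scatter pools bright and dim probe sets. It holds no variation between animals or sorts, and no error that all probe sets of an array share.

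Both arrays carried the T cell markers. Cd3e, Cd3d, Cd3g, Cd4, Cd5 and Cd28 were above the floor on both, though 5 of these 6 were lower in GFP-positive cells, 3 of them past 1.5-fold (Cd4 1.62-fold, Cd3e 1.59-fold and Cd28 1.53-fold lower). Their part in the differences of the folding genes was not tested. Foxp3 had signals of 504 in GFP-positive cells and 173 in GFP-negative cells (2.91-fold higher). All 5 regulatory T cell markers were higher in GFP-positive cells, yet above the floor in GFP-negative cells too. Tnfrsf18 had 1394 in GFP-positive against 506 in GFP-negative cells, and Ikzf2 4435 against 2250. Ctla4 had 2420 in GFP-positive against 1244 in GFP-negative cells, and Il2ra 618 against 362. How far the sort separated the populations was not tested. The 3′ to 5′ signal ratio, which grows with RNA degradation or incomplete copying, was 5.30 in GFP-positive cells against 3.57 in GFP-negative cells for Actb, and 9.27 in GFP-positive against 6.24 in GFP-negative cells for Gapdh. Over all 11480 genes above the floor the median difference was -0.0038 log2, with 49.7% of them higher and 50.3% lower in GFP-positive cells.

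The folding machinery differed little between the populations. In such bulk samples, fewer cells of a type and less RNA per cell cannot be told apart. Of the 36 genes above the floor, 19 had the higher signal in GFP-positive cells and 17 the lower, with a median of 0.03 log2 and quartiles of -0.16 and 0.21, beside quartiles of -0.27 and 0.28 over all genes. Only Hspb1 and Sdf2l1 passed 2-fold upward (2 of 36, where 2.66% of all genes did), both as lower bounds from low signals, and no gene passed 2-fold downward (0 of 36, where 1.98% of all genes did). Past 1.5-fold in either direction were 6 of 36, where 19.2% of all genes were. These were Hspb1, Sdf2l1, Atf6 and Cct3 upward and Ddit3 and Dnajb9 downward. The counts are close to the background shares, so they show nothing particular about the folding genes. The 2-fold calls depend on the floor: with it doubled, no folding gene passed 2-fold.

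**Figure D1:**
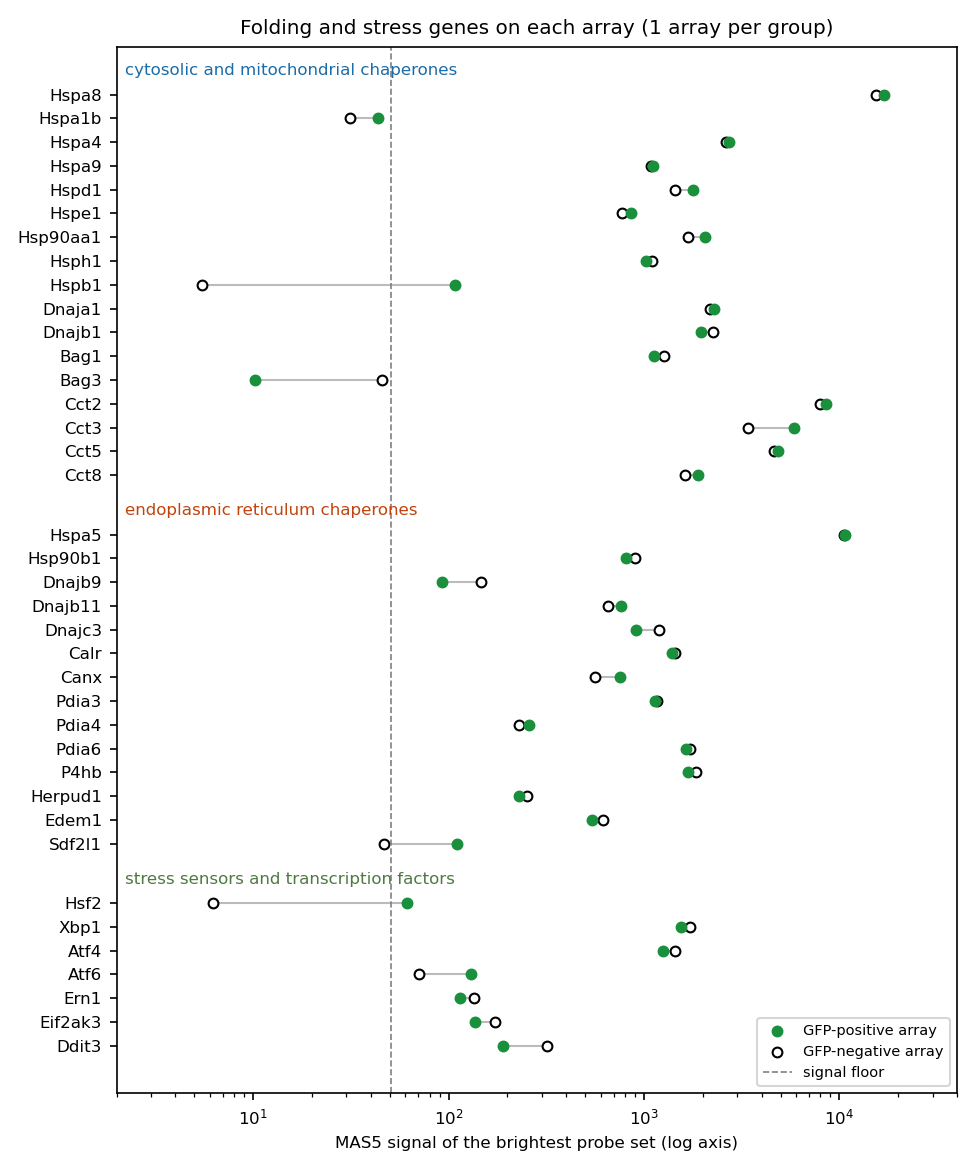
MAS5 signal (log axis) of the brightest probe set of each of the 38 folding and stress genes on the GFP-positive array (filled) and the GFP-negative array (open), 1 array per group, with the floor of 51.0 as a dashed line. Most pairs nearly coincide, and the wide gaps of Hspb1, Hsf2 and Bag3 have at least 1 point under the floor.

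The spread of the differences shrank with signal. The geometric mean signal of the folding genes above the floor had a median of 1125, and 17 of the 18 genes at or above it lay within 1.5-fold. Of all 1321 genes with at least that mean signal 96.1% lay within 1.5-fold, and of all genes above the floor 80.8%. Of the 18 dimmer folding genes, 13 lay within 1.5-fold.

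**Figure D2:**
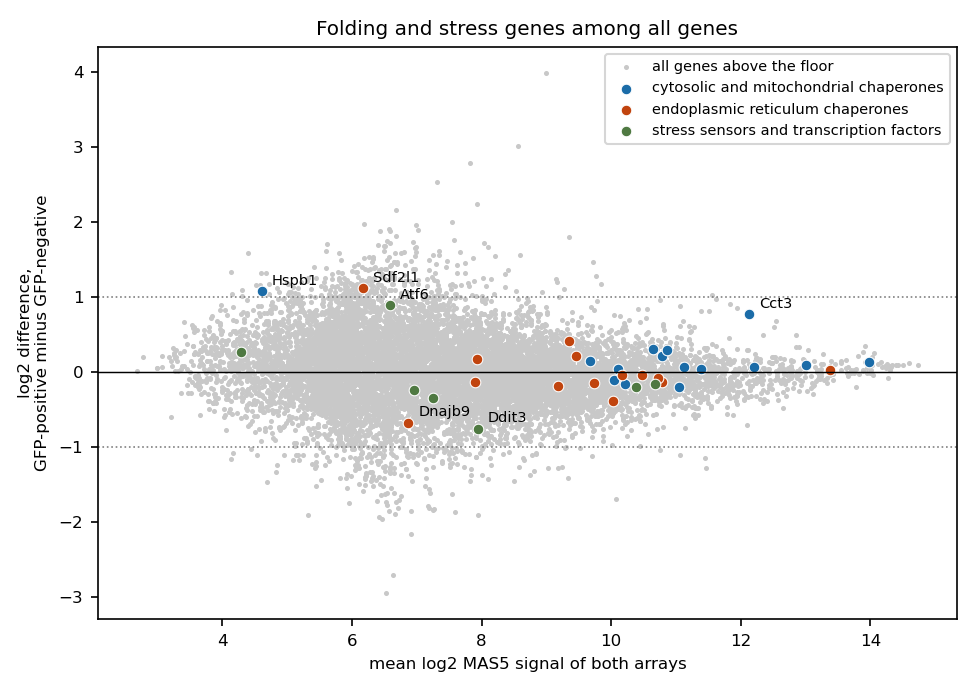
Log2 difference (GFP-positive minus GFP-negative) against mean log2 MAS5 signal for all genes above the floor (grey) and for the folding and stress genes (coloured by role). The labelled genes are the 6 past 1.5-fold, and dotted lines mark 2-fold. The other coloured points lie near 0 within the grey cloud.

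Cytosolic and mitochondrial chaperones were mostly slightly higher in GFP-positive cells, namely 12 of 15 (3 lower, median 0.09 log2), where 49.7% of all genes were. The count depends on the choice of probe set: with all probe sets of a gene averaged, 8 were higher and 7 lower (median 0.07 log2). Hspa8, which encodes the constitutive HSP70 of the cytosol, had a signal of 16943 in GFP-positive cells and of 15481 in GFP-negative cells, 0.13 log2 higher. Of its further probe sets, 2 were also higher, at 0.36 and 0.02 log2. The last, its dimmest, had signals of 136 in GFP-positive against 318 in GFP-negative cells, which is 2.34-fold lower, so the probe sets of this gene do not point 1 way. The part of the higher 3′ to 5′ ratios in GFP-positive cells in this disagreement was not tested.

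The stress-inducible HSP70 gene Hspa1b was below the floor on both arrays with all 3 probe sets, the brightest at 43.6 in GFP-positive cells against 31.4 in GFP-negative cells. Hspa1a, its near-identical copy, was below the floor too, at 5.40 in GFP-positive against 38.4 in GFP-negative cells, and short probes may not tell these copies apart. Hspa4 and Hsph1, which encode HSP110-type exchange factors for HSP70, differed by 0.05 and -0.10 log2. The lower signals of Hspa4 went the other way, with 3 dim probe sets between -0.55 and -0.16 log2, the last of them a minimum.

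Hsp90aa1, which encodes the inducible HSP90 alpha, was higher with each of its 3 probe sets above the floor. For the brightest, GFP-positive cells had 2057 and GFP-negative cells 1676 (0.30 log2), and the others gave 0.12 and 0.67 log2. All are under 2-fold, and they share the same 2 arrays, so they are not independent samples. Hspb1, the small heat shock protein HSP27, had signals of 108 in GFP-positive cells against 5.50 in GFP-negative cells, at least 2.11-fold higher. Its other probe set was below the floor on both arrays, at 5.20 in GFP-positive against 4.80 in GFP-negative cells, so the difference rests on 1 probe set. With the loess alternative it was 0.95 log2, under 2-fold.

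Among cofactors, Dnaja1, a J domain partner of HSP70, had 3 probe sets between 0.0049 and 0.13 log2. Dnajb1, the J domain protein of the heat shock response, was lower with both of its probe sets, at -0.20 log2 each (1967 in GFP-positive cells against 2260 in GFP-negative cells for the brighter). Bag1, a nucleotide exchange factor of HSP70, differed by -0.16 log2. Bag3, a stress-induced exchange factor that also serves autophagy, was below the floor on both arrays (10.2 in GFP-positive, 45.7 in GFP-negative cells).

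The TRiC chamber folds actin, tubulin and other cytosolic proteins, and its subunits Cct2, Cct3, Cct5 and Cct8 were higher in GFP-positive cells with the brightest probe set of each, by 0.09, 0.77, 0.07 and 0.22 log2. The Cct3 value rests on 1 probe set: its brightest probe set had signals of 5851 in GFP-positive cells against 3420 in GFP-negative cells, 1.71-fold higher, while the next had 3240 in GFP-positive against 3656 in GFP-negative cells and the one after it 2524 in GFP-positive against 2694 in GFP-negative cells. Of its 4 further probe sets above the floor on both arrays, 3 were lower and 1 higher, between -0.47 and 0.06 log2. A dim probe set of Cct3 was at least 1.52-fold lower (17.1 in GFP-positive, 77.5 in GFP-negative cells). Cct2 also went both ways, with a second probe set at -0.32 log2 (4547 in GFP-positive, 5678 in GFP-negative cells). Averaged over probe sets, 2 of the 4 subunits were higher and 2 lower.

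In mitochondria, the chaperonin Hspd1 (HSP60) and its lid Hspe1 (HSP10) were both higher, as was the mitochondrial HSP70 gene Hspa9. Hspd1 had signals of 1774 in GFP-positive cells against 1436 in GFP-negative cells (0.30 log2). Hspe1 had 855 in GFP-positive against 774 in GFP-negative cells with its brighter probe set (0.14 log2) and 147 in GFP-positive against 85.8 in GFP-negative cells with its dimmer (0.78 log2). Hspa9 had 1112 in GFP-positive against 1085 in GFP-negative cells (0.04 log2), and of its dim probe sets 1 was at least 2.80-fold higher (143 in GFP-positive, 13.2 in GFP-negative cells) and 1 at least 1.41-fold lower (3.10 in GFP-positive, 72.0 in GFP-negative cells). All 3 genes were higher in GFP-positive cells under each of the 7 alternatives that were run, and the difference of the brightest probe set of each was smaller than the probe set scatter. The alternatives reuse the same 2 arrays. For Hspd1, with 1 probe set far above the floor, changing the floor, averaging or leaving out probe sets could not alter its value.

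Hspd1 and Hspe1 lie head to head and share their promoter region, which is why the following stretch is shown. It is read on the Hspe1 strand in RefSeq's GRCm38.p6 build at chr1:55088059-55088076, 89 to 72 bases before the Hspe1 start, and 1 of the 2 promoter windows of Hspd1 holds it as well. Capitals mark the GAA and TTC repeats that heat shock factors bind.

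Hspe1: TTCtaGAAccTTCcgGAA

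The search was for GAA, TTC and GAA, or TTC, GAA and TTC, each 2 free bases apart, on both strands, in windows of 250 bases before to 50 after the start. The stretch holds 2 overlapping matches. Such a match was found in 198 of 32851 windows of all genes (0.603%) and in 4 of the 41 windows of the folding genes (9.76%). The stretch shared by Hspd1 and Hspe1 is counted in the windows of both genes, which raises the share of the folding genes. The genes with a match were Hspd1, Hspe1 and Hsph1, which is 3 of the 34 genes with a window. Their differences were 0.30, 0.14 and -0.10 log2. A match describes these letters and does not show binding.

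Endoplasmic reticulum genes leaned neither way, with 5 of 14 higher and 9 lower (median -0.06 log2). After quantile normalization or loess the split was 7 higher and 7 lower, because Calr and Pdia3 changed sign. Hspa5, the HSP70 of the endoplasmic reticulum (BiP) and the usual indicator of an active response, had a signal of 10724 in GFP-positive cells and of 10544 in GFP-negative cells (0.02 log2). Its further probe sets gave -0.19 and 0.09 log2. Hsp90b1, the HSP90 of this compartment (GRP94), had 813 in GFP-positive against 901 in GFP-negative cells with the brighter probe set (-0.15 log2) and 381 in GFP-positive against 223 in GFP-negative cells with the other (0.77 log2), which point in opposite directions.

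The J domain partners of BiP differed among themselves. Dnajb9, which restrains IRE1 and feeds clients to degradation, had 92.1 in GFP-positive against 147 in GFP-negative cells, which is 1.60-fold lower, by its only probe set. Dnajb11, which delivers new chains to BiP, was 0.21 log2 higher (759 in GFP-positive, 656 in GFP-negative cells). Dnajc3, which also inhibits kinases of eIF2 alpha, was lower with its brightest probe set (913 in GFP-positive, 1193 in GFP-negative cells, -0.39 log2), but 2 further probe sets were higher, at 0.35 and 0.42 log2, and 1 was lower, at -0.89 log2.

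Of the lectin chaperones and disulfide isomerases, Canx differed most. Calr, which encodes calreticulin, had 1399 in GFP-positive cells against 1440.4 in GFP-negative cells (-0.04 log2), and its further probe sets gave -0.22 and 0.00019 log2. Canx, its membrane-bound relative calnexin, had 754 in GFP-positive against 563 in GFP-negative cells (0.42 log2), while a further probe set gave -0.29 log2 and the last was at least 1.89-fold higher (96.2 in GFP-positive, 4.4 in GFP-negative cells). The disulfide isomerase genes Pdia3, Pdia4, Pdia6 and P4hb differed by -0.04, 0.17, -0.07 and -0.13 log2 with the brightest probe set of each, all smaller than the scatter between probe sets of a gene. Dim second probe sets went the other way, at least 1.18-fold higher for Pdia3 (60.1 in GFP-positive, 18.2 in GFP-negative cells) and at least 1.13-fold lower for Pdia4 (2.50 in GFP-positive, 57.5 in GFP-negative cells). With probe sets averaged both genes changed sign, to 0.10 log2 for Pdia3 and -0.0013 log2 for Pdia4.

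Of the genes for disposal and quality control, Edem1, which marks misfolded glycoproteins for degradation, was lower with both probe sets. The brighter had 541 in GFP-positive cells against 616 in GFP-negative cells (-0.19 log2), and the other 403 in GFP-positive against 814 in GFP-negative cells, 2.02-fold lower. Herpud1, a membrane organiser of degradation, had 230 in GFP-positive against 251 in GFP-negative cells (-0.13 log2), with a second probe set at 0.18 log2. Sdf2l1, a partner of BiP and its J proteins, had 111 in GFP-positive cells against 46.8 in GFP-negative cells, at least 2.17-fold higher by its only probe set, with the GFP-negative signal just under the floor.

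Genes of this compartment are known to respond through the endoplasmic reticulum stress element, in which NF-Y binds the CCAAT end and ATF6 or XBP1 the CCACG end. The elements found are shown because they are the known DNA sites of this response. Capitals mark the fixed ends, and each is written in the direction of the motif.

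Hspa5: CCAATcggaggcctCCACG
Hsp90b1 nearer: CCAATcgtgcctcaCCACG
Hsp90b1 farther: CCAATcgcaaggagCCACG
Calr: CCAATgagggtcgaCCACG
Canx: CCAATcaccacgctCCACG
Dnajc3: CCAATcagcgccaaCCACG
Pdia6: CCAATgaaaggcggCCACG

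In GRCm38.p6 they lie at chr2:34772025-34772043 for Hspa5, 65 to 47 bases before the start, at chr14:118937827-118937845 for Dnajc3 (105 to 87 bases before), and at chr12:17266491-17266509 for Pdia6 (98 to 80 bases before), all on the plus strand. Those of Hsp90b1 lie at chr10:86705533-86705551 on the plus strand and chr10:86705638-86705656 on the minus strand, 107 to 89 and 212 to 194 bases before the start. That of Calr lies at chr8:84847075-84847093 on the plus strand (162 to 144 bases before), and that of Canx at chr11:50325800-50325818 on the minus strand (145 to 127 bases before). Hsp90b1 and Calr are transcribed from the minus strand, so their plus-strand elements run against the gene.

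The letters searched were CCAAT and CCACG with 9 free bases between them, on both strands. They were found in 39 of 32851 windows of all genes (0.119%) and in 6 of the 41 windows of the folding genes (14.6%). A gene was counted if at least 1 of its windows matched. By gene these were 6 of the 14 endoplasmic reticulum genes. None of the 14 cytosolic or mitochondrial and 6 stress sensor genes with a window had a match. The CCAAT end alone was present in all 14 endoplasmic reticulum genes. By window it was in 63.4% of those of the folding genes and in 37.4% of all windows. A shorter relative, ATTGG and CCACG with 1 free base between them, was found in Herpud1 and Dnajb11. That is 4.88% of the windows of the folding genes, beside 0.0365% of all windows.

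Herpud1: ATTGGgCCACG
Dnajb11: ATTGGcCCACG

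They lie on the plus strand at chr8:94386377-94386387, 52 to 42 bases before the Herpud1 start, and at chr16:22857852-22857862, 7 to 17 bases after the Dnajb11 start. The element TGACGTGG was in none of the folding genes' windows and in 0.676% of all windows. Of the 8 genes with either stress element, 3 were higher and 5 lower in GFP-positive cells (median -0.06 log2), between -0.39 for Dnajc3 and 0.42 for Canx. The other 6 endoplasmic reticulum genes had 2 higher and 4 lower, with a median of -0.08 log2.

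Stress sensors and transcription factors were lower for 5 of 7 genes (median -0.20 log2), or for 4 of 7 with probe sets averaged (median -0.11 log2). Of all genes above the floor, 50.3% were lower. Ern1, which encodes the sensor IRE1 alpha, had signals of 114 in GFP-positive cells against 135 in GFP-negative cells (-0.24 log2), and its further probe sets, all dim, gave -0.26 and -0.05 log2, 1 at least 1.03-fold higher (52.7 in GFP-positive, 49 in GFP-negative cells) and 1 below the floor on both arrays. Eif2ak3, which encodes the sensor kinase PERK, had 136 in GFP-positive against 172 in GFP-negative cells (-0.34 log2). Atf6, the sensor that is cleaved into a transcription factor, went the other way at 1.86-fold higher (131 in GFP-positive, 70.2 in GFP-negative cells), but its next probe set had 87.7 in GFP-positive against 92.9 in GFP-negative cells (-0.08 log2). With the floor doubled the Atf6 difference was 0.36 log2.

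Downstream of the sensors, Xbp1 was lower with each of its 3 probe sets above the floor on both arrays. The brightest had 1547 in GFP-positive cells against 1722 in GFP-negative cells (-0.15 log2), and the others gave -0.43 and -0.0066 log2, while a further dim probe set was at least 1.12-fold higher (57.3 in GFP-positive, 48.1 in GFP-negative cells). IRE1 activates Xbp1 by splicing its RNA, and these signals do not separate the spliced from the unspliced form. Atf4, translated when eIF2 alpha is phosphorylated, had 1255 in GFP-positive against 1438 in GFP-negative cells (-0.20 log2), with a further probe set at 0.26 log2 and the last at least 1.97-fold higher (101 in GFP-positive, 18.8 in GFP-negative cells).

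Ddit3, which encodes the pro-apoptotic factor CHOP, showed the largest difference downward among the folding and stress genes by brightest probe set. It had signals of 189 in GFP-positive cells against 319 in GFP-negative cells, 1.68-fold lower, and its second probe set was at least 1.60-fold lower (6.70 in GFP-positive, 81.6 in GFP-negative cells). Both probe sets thus had the lower signal in GFP-positive cells. Hsf2, a heat shock factor, was at least 1.21-fold higher (61.6 in GFP-positive, 6.20 in GFP-negative cells), close to the floor, and its other probe set was below the floor.

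**Figure D3:**
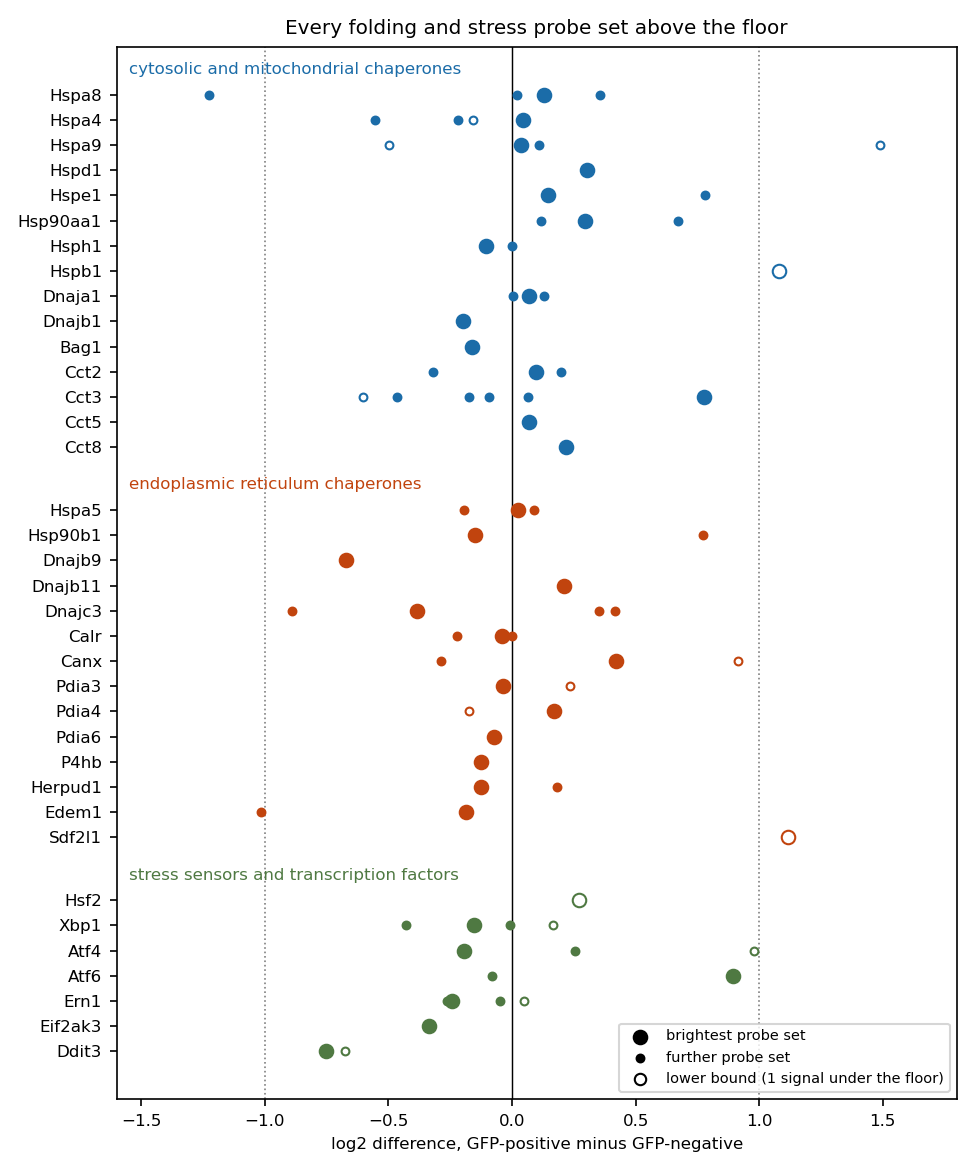
Log2 difference (GFP-positive minus GFP-negative) of all 83 probe sets above the floor, by gene and role. Large points are the brightest probe set of a gene, small points the further ones, open points lower bounds, and dotted lines mark 2-fold. Points of Hspa8, Cct3 and Dnajc3 measured above the floor on both arrays spread over more than 1 log2 unit, as do those of Hspa9, Canx and Atf4 with their lower bounds, whereas both points of Ddit3 lie left of 0.

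Across the 83 probe sets above the floor, 42 were higher and 41 lower (median 0.00019 log2). Of the 83, 3 were at least 2-fold higher and 2 at least 2-fold lower, where 3.14% and 2.13% of all probe sets above the floor were. Of 21 folding genes with several probe sets above the floor on both arrays, 9 had all of them on the same side of 0 (42.9%), as had 44.3% of 3551 genes of the whole array. Hspa8, Cct3 and Dnajc3 had probe sets more than 1 log2 unit apart, where 16.0% of all such genes did. For most of these genes the direction therefore differs between probe sets.

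Further genes of the same pathways, grouped by function, were described in the same way. These lists were chosen with earlier results of these data known, so their counts are descriptions only. Their counts stand beside 49.7% higher and 50.3% lower over all genes above the floor. The other TRiC subunits and prefoldin, which hands clients to TRiC, had higher signals in GFP-positive cells for 9 of 10 genes (median 0.22 log2) and none past 1.5-fold. Tcp1, Cct4, Cct6a and Cct7 were among the higher. Pfdn2 (431 in GFP-positive cells against 309 in GFP-negative cells, 0.48 log2) and Pfdn4 (574 in GFP-positive, 434 in GFP-negative cells, 0.40 log2) differed most upward, and Pfdn6 (1469 in GFP-positive, 1991 in GFP-negative cells, -0.44 log2) was the lower gene.

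The other cytosolic chaperones and HSP90 cofactors leaned the opposite way, with 16 of 21 lower and 5 higher (median -0.34 log2), or 13 lower and 8 higher with probe sets averaged (median -0.13 log2). Bag4, a BAG domain cofactor, had 168 in GFP-positive cells against 253 in GFP-negative cells (1.504-fold lower). Hspa4l, an HSP110-type gene, had 135 in GFP-positive against 198 in GFP-negative cells (1.46-fold lower), while St13, the HSP70-interacting protein HIP, had 1007 in GFP-positive against 691 in GFP-negative cells (1.46-fold higher).

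Other mitochondrial chaperones and proteases were lower for 6 of 9 genes (median -0.17 log2). The protease subunits Clpx (125 in GFP-positive cells against 157 in GFP-negative cells, -0.33 log2) and Clpp (489 in GFP-positive, 586 in GFP-negative cells, -0.26 log2) and the protease Htra2 (306 in GFP-positive, 366 in GFP-negative cells, -0.26 log2) led the list. Other folding factors of the endoplasmic reticulum were lower for 12 of 19 genes (median -0.10 log2). Txndc5 (423 in GFP-positive, 622 in GFP-negative cells, -0.56 log2) and Txndc11 (120 in GFP-positive, 171 in GFP-negative cells, -0.50 log2), both thioredoxin-domain genes, were lower, and Sil1, the exchange factor of BiP, was higher (409 in GFP-positive, 299 in GFP-negative cells, 0.46 log2). After quantile normalization or loess, 10 of these 19 were lower.

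Degradation factors of the endoplasmic reticulum were lower for 13 of 16 genes (median -0.17 log2), or for 11 of 16 after quantile normalization and 10 of 16 with probe sets averaged. Of all genes above the floor, 50.3% were lower. At least 2-fold lower were 2 of the 16, where 1.98% of all genes were. Edem2, a relative of Edem1, had 118 in GFP-positive cells against 248 in GFP-negative cells, 2.09-fold lower. Nploc4, a cofactor of the VCP ATPase that extracts proteins from the membrane, had 60.4 in GFP-positive against 153 in GFP-negative cells, 2.54-fold lower. Derl3, a derlin, was at least 1.78-fold higher (90.6 in GFP-positive, 11.5 in GFP-negative cells). Edem1 and Edem3, of which Edem3 was also chosen after its values were seen, were lower too, at -0.19 and -0.49 log2.

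Targets and kinases of the integrated stress response were split, with 8 of 15 higher and 7 lower (median 0.04 log2). Ppp1r15a, the phosphatase cofactor GADD34 that CHOP induces, had 299 in GFP-positive cells against 557 in GFP-negative cells, 1.86-fold lower, in the same direction as Ddit3. Whether the differences of Ppp1r15a and Ddit3 are linked was not tested. Ppp1r15b, the constitutive relative of Ppp1r15a, had 547 in GFP-positive against 381 in GFP-negative cells (1.44-fold higher). Cebpg, a partner of ATF4, had 498 in GFP-positive against 366 in GFP-negative cells (1.36-fold higher). Immediate early genes, which mark recent stimulation or handling, split as 8 higher and 9 lower of 17 (median -0.04 log2). Among them Nr4a2 had 105 in GFP-positive against 53.3 in GFP-negative cells (1.96-fold higher), Dusp1 2920 in GFP-positive against 2000.2 in GFP-negative cells (1.46-fold higher) and Ier3 253 in GFP-positive against 341 in GFP-negative cells (1.35-fold lower).

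**Figure D4:**
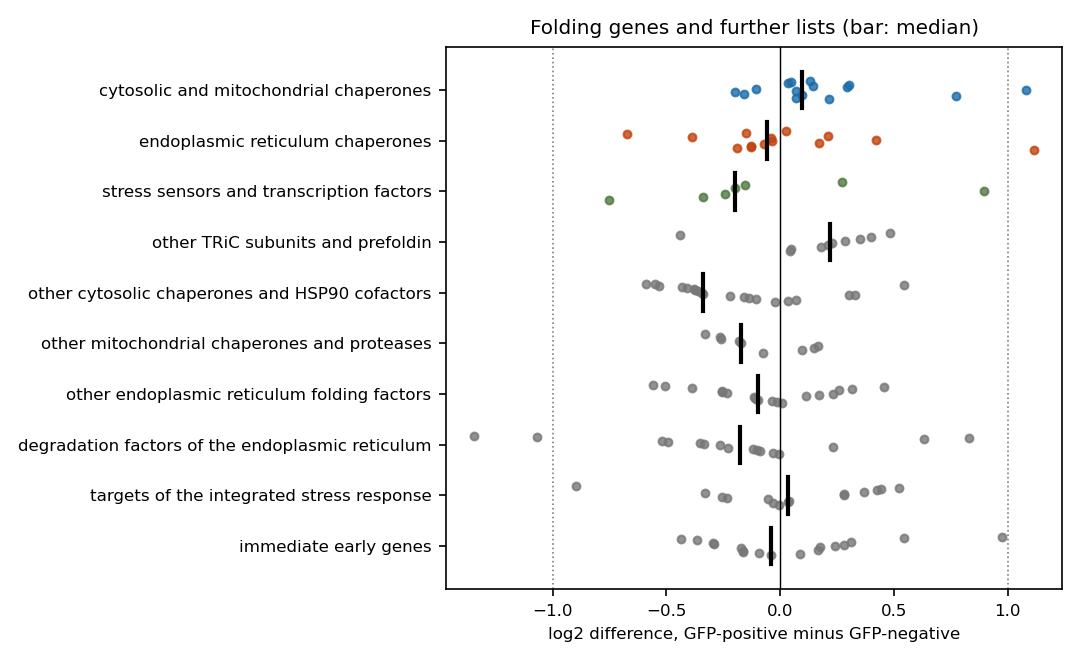
Log2 difference (GFP-positive minus GFP-negative) of each gene above the floor in the 3 roles of the folding and stress set (coloured) and in 7 further lists (grey), with a black bar at the median. The medians run from -0.34 for other cytosolic chaperones and HSP90 cofactors to 0.22 for other TRiC subunits and prefoldin.

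Secretory cells are rich in endoplasmic reticulum, so markers of other cells were read beside these genes. Of 6 plasma cell markers, Sdc1 and Tnfrsf17 were below the floor on both arrays, and the other 4 were on both sides of 0. Mzb1, a partner of BiP and GRP94, had 175 in GFP-positive cells against 71.5 in GFP-negative cells, Irf4 489 in GFP-positive against 280 in GFP-negative cells, Jchain 145 in GFP-positive against 215 in GFP-negative cells, and Prdm1 210 in GFP-positive against 248 in GFP-negative cells. The summed signal of the 6 was 1071 in GFP-positive cells against 859 in GFP-negative cells, and most of that difference came from Irf4 alone. For B cells, 4 of 6 markers were above the floor, with a summed signal of 2291 in GFP-positive against 4577 in GFP-negative cells that came mostly from Ighm (1881 in GFP-positive, 4139 in GFP-negative cells). The 4 were split, 2 higher and 2 lower: Cd79b had 222 in GFP-positive against 70.8 in GFP-negative cells (3.13-fold higher) and Cd22 98.3 in GFP-positive against 235 in GFP-negative cells (2.39-fold lower), while Cd79a and Pax5 were below the floor on both. Of 7 myeloid and dendritic markers 4 were above the floor on at least 1 array, summed signal 321 in GFP-positive against 275 in GFP-negative cells, and Cd14, Lyz2 and Itgax were below it. Of 4 CD8 T and NK cell markers 3 were above, summed signal 282 in GFP-positive against 280 in GFP-negative cells, and of 4 erythroid and platelet markers 2, summed signal 136 in GFP-positive against 227 in GFP-negative cells. The part of these cells in the differences of the folding genes was not tested.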

How the data were processed

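Signals were deposited as 1 intensity per probe set and array. Per the submitters' processing notes, the authors had made them with MAS5. The sources used here name no software version, scaling target or detection calls. The 2% trimmed mean was 150.0 on both arrays, so no further scaling was applied. Per the labels, 6 µg of Trizol-extracted RNA were labelled for each array and sort purity was above 99%. Of 45101 probe sets, 34945 had 1 symbol and were no controls, 932 had several and 9211 none. The floor was the 90th percentile of the signals of 100 probe sets of 64 tissue-restricted genes. By their brightest probe set, 19 of these 64 genes passed it. Counts used folds of 2 and 1.5. No gene was tested, since each group has 1 array, whose number limits the precision.

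The genes and lists were chosen with earlier results of these data known. All 38 genes with a probe set are described. Of each further list, up to 3 genes that differed most among those above the floor are named, and others are said to be chosen afterwards. Promoter windows come from RefSeq (GRCm38.p6) and matched 34 of 40 genes by symbol. The alternatives were other floors, quantile normalization, loess, averaged probe sets, and leaving out probe sets that can match several transcripts. Steps ran in Python 3.11.15 with pandas 2.3.3, NumPy 2.4.6 and statsmodels 0.14.6, and were tested on simulated data.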

Additional observations from a re-analysis of the deposited data

How the results depend on the processing

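With the floor doubled, 0 folding genes were at least 2-fold higher and 2 passed 1.5-fold. After loess 1 was at least 2-fold higher (Sdf2l1), and without a floor 1 was at least 2-fold lower (Bag3, below the floor on both arrays). Leaving out probe sets whose IDs mark possible matches to several transcripts, 28 genes were left, of which 1 was at least 2-fold higher and 1 at least 2-fold lower (Hspa8, by its remaining probe set), the median over genes was -0.0551 log2 and that over probe sets -0.0780. Fewer probe sets by construction underlie that setting, in which the TRiC median was -0.27 from 2 genes, Cct5 and, by a dim probe set, Cct3. The medians of the 3 roles kept their sign under all 7 alternatives. For the endoplasmic reticulum genes that sign carries little weight. Their median was -0.0125 log2 after quantile normalization, -0.0074 after loess and -0.0139 with probe sets averaged. Other floors left it at -0.0573, and it was -0.0996 without the probe sets that may match several transcripts. Of the 36 genes, 23 kept the sign of their difference under every alternative that gave a value, and 13 had the other sign under at least 1, of which 10 with probe sets averaged. Changing or leaving out the floor altered no sign, and averaging cannot alter that of a gene with 1 probe set above the floor. The count of 23 therefore partly reflects how many probe sets each gene has. The share of all genes past 1.5-fold ran from 12.6% with the floor doubled to 46.5% without a floor. No paired analysis was possible because each group has 1 array. Low signals limit the genes near the floor, among them Hspb1, Sdf2l1, Hsf2, Atf6 and, in the further lists, Nploc4.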
